A study of Mus musculus with 4 samples.

Results

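The SIBLING genes (small integrin-binding ligand, N-linked glycoproteins) are Dspp, Dmp1, Ibsp, Mepe and Spp1. They were taken by symbol from the gene list of the count tables, where each has 1 row, so that 5 of 32285 genes are described here. The data are single-cell RNA-sequencing libraries of molar tooth organs from wild-type C57BL/6J mice, labelled WTB6, with no treatment or mutant. There were 4 libraries, 1 for each stage and jaw, namely upper (maxillary) and lower (mandibular) molars of embryos at E15.5 and of pups at P1, the first postnatal day. Each library pooled 6 tooth organs and had no replicate, so no test between conditions was run, and all intervals below are 95% intervals of counting error within a library. The titles give the embryonic stage as E15 and the protocol as E15.5, and the protocol gives the pups as P0/P1. Barcodes with at least 1000 unique molecular identifiers (UMIs, tags that mark 1 captured RNA molecule) were kept. These numbered 10073 at E15.5 maxillary, 17040 at P1 maxillary, 6911 at E15.5 mandibular and 16810 at P1 mandibular, of which 10120 were used after barcodes shared with the other P1 library were dropped (below).

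SIBLING proteins are acidic, heavily phosphorylated proteins that are secreted into the matrix of dentin and bone, bind calcium and hydroxyapatite, and carry an RGD sequence that cell-surface integrins recognize. Dspp encodes dentin sialophosphoprotein, which is cleaved into the main non-collagenous proteins of dentin, and is mutated in dentinogenesis imperfecta. Dmp1 is a matrix protein of odontoblasts and osteocytes, Ibsp encodes bone sialoprotein, Spp1 encodes osteopontin, and Mepe is best known from osteocytes and from control of phosphate and mineralization.

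The 5 genes lie side by side on mouse chromosome 5 (GRCm38.p6) in a stretch of 270351 bases. Dspp spans chr5:104170703-104180127, Dmp1 chr5:104197575-104214102, Ibsp chr5:104299287-104311472, Mepe chr5:104325329-104338611 and Spp1 chr5:104435111-104441053. The gaps between neighbours were 17447 bases from Dspp to Dmp1, 85184 from Dmp1 to Ibsp, 13856 from Ibsp to Mepe and 96499 from Mepe to Spp1. Dmp1 had its highest level in another named class than Ibsp and Spp1 (below). For these 3 genes, the best-counted with an entry, the 250 bases before the first RefSeq start are shown, 5′ to 3′ on the plus strand. Capitals mark matches on either strand to TGTGGT (the core of Runx sites), TAATTA or TAATTG (cores of homeodomain sites) and TATAAA (the TATA box).

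Dmp1, chr5:104197325-104197574: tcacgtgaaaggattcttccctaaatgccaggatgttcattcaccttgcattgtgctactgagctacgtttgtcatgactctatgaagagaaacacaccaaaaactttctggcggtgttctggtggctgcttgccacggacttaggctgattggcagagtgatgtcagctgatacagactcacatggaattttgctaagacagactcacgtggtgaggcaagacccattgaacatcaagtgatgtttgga
Ibsp, chr5:104299037-104299286: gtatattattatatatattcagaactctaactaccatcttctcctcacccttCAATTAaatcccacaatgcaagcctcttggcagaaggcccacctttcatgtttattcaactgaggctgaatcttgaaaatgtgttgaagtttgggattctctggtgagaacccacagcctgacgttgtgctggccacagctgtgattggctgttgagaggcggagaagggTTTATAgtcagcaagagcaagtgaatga
Spp1, chr5:104434861-104435110: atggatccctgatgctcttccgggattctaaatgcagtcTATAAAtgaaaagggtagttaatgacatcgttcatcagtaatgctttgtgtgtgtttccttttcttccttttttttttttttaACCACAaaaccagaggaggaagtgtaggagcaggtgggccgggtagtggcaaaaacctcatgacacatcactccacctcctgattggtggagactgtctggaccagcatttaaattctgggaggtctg

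The Dmp1 window held none of the 4 motifs. The window before a second Dmp1 start, chr5:104202367-104202616, held 1 match to TGTGGT. The Ibsp window held TAATTG on the opposite strand, 198 to 193 bases before the start, and TATAAA on the opposite strand, 28 to 23 bases before it. The Spp1 window held TATAAA 211 to 206 bases before the start and TGTGGT on the opposite strand 128 to 123 bases before it. Of all 32851 RefSeq promoter windows of this length, 14.05% held TGTGGT, 4.84% TAATTA, 7.17% TAATTG and 12.4% TATAAA, so that each match is common. Reads from the 3′ end of transcripts do not show which start was used.

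The P1 libraries shared 7131 cell barcodes, which is 38.1% of the P1 maxillary and 36.8% of the P1 mandibular barcodes. The E15.5 libraries shared 28. The median shared barcode held 12088 UMIs in the upper-jaw table against 2870 in the lower-jaw one. The median log2 ratio was 2.07 with quartiles of 2.05 and 2.11, and 7093 of them had more UMIs in the maxillary table. The jaw that these cells came from cannot be told apart from the tables. They were left in the maxillary library and dropped from the mandibular one, which removed 6690 barcodes above the minimum. The P1 mandibular values below therefore rest on barcodes of that library alone, whereas most tooth-forming barcodes of the P1 maxillary library are shared ones. The shared number was 334 of 350 for the odontoblast-like class, 475 of 506 for ameloblast-like and 3535 of 3656 for papilla-like cells. In the P1 maxillary library the shared barcodes had a median of 12089 UMIs and the others 2545.

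Barcodes were clustered without the 5 genes and without 38 partner genes, and clusters were named from marker genes that include none of them. A class is called X-like because it rests on markers alone. In all odontoblast-like clusters, each of the 7 odontoblast markers, Smpd3, Nes, Sall1, Notum, Dkk1, Wnt10a and Gsc, was detected in at least 10% of barcodes. The odontoblast-like clusters with most Dspp and Dmp1 also had the osteoblast markers Bglap and Bglap2 (osteocalcin genes) or Ifitm5 among their 10 leading genes and none of the odontoblast markers there. This held for 2 of 3 clusters at P1 maxillary and 2 of 4 at P1 mandibular. Smpd3 was at 2104 CPM in the Bglap-led maxillary cluster and at 291 CPM in the osteoblast-like cluster. Notum, a secreted Wnt inhibitor, was at 320 against 13.1 CPM, and Runx2, the transcription factor of bone formation, at 131 against 2151 CPM. In the cluster richest in Dspp at P1 mandibular, led by Sh2d4a, Smpd3 was lower, at 773 against 348 CPM in the Mmp13-led osteoblast-like cluster, with Notum at 127 against 16.2 CPM and Runx2 at 107 against 2550 CPM. Smpd3, Notum and Runx2 were on the marker lists used for naming, so their levels are not separate from the names. Other markers went against the name. In the Sh2d4a-led cluster Bglap was at 6109 against 521 CPM, Bglap2 at 2114 against 215, Ifitm5 at 424 against 255 and Sp7 at 153 against 117, and the odontoblast marker Gsc was at 12.7 against 37.4 CPM. In the Bglap-led maxillary cluster Bglap (3310 against 97.2 CPM), Ifitm5 (1092 against 366) and Sp7 (246 against 114) were likewise above the osteoblast-like cluster. Here CPM is the number of UMIs of a gene per 1000000 UMIs of the class or cluster. A second osteoblast-like cluster at P1 mandibular, led by Ostn, Acan and Col2a1, had 3 chondrocyte and no osteoblast markers among its leading 10, and the Gm17359-led osteoblast-like cluster of E15.5 mandibular, 44 of the 78 barcodes of that class, had the endothelial marker Pecam1 and no osteoblast marker there. Of 11 ameloblast-like clusters 3 had an ameloblast marker among their leading 10, although 5 of the 6 ameloblast markers were detected in at least 10% of barcodes in each. At P1 mandibular the Krt27-led cluster had the odontoblast marker Wnt10a there and the Gm49678-led one the neuron marker Stmn2, and neither had an ameloblast marker. For these reasons classes are not compared between jaws or stages by a ratio, and cluster values of the members are given beside class values. No cluster of E15.5 passed the odontoblast or ameloblast thresholds, although 1 mandibular cluster of 14 barcodes was led by Amelx (below), and none was named osteoblast-like at E15.5 maxillary.

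Dspp was counted mostly in ameloblast-like and odontoblast-like barcodes of P1, and Dmp1 in odontoblast-like barcodes. Ibsp and Spp1 had their highest level of any named class in osteoblast-like barcodes, and Mepe was hardly counted. Over the 4 libraries the kept barcodes held 38804 UMIs of Dspp, 7351 of Dmp1, 47362 of Ibsp, 28710 of Spp1 and 49 of Mepe. These totals follow the number of cells of each kind that were dissected as well as the level per cell.

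**Figure D1:**
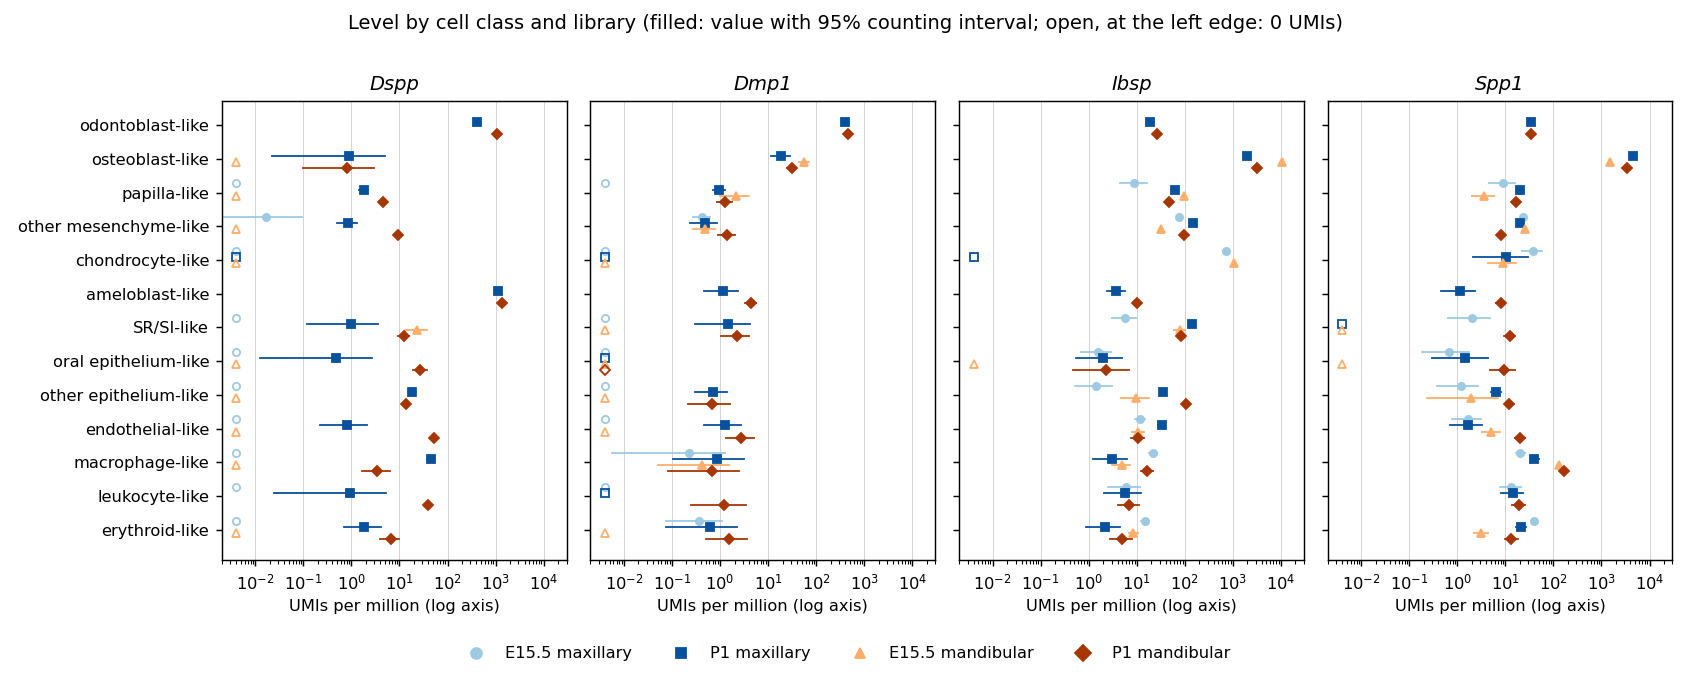
Level of Dspp, Dmp1, Ibsp and Spp1 in CPM (log axis) by cell class, 1 point per library with its 95% counting interval, and open points at the left edge for 0 UMIs. Dspp is highest in ameloblast-like and odontoblast-like barcodes of P1, Dmp1 in odontoblast-like, and Ibsp and Spp1 in osteoblast-like barcodes, where the points lie above 1500 CPM.

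Dspp in odontoblast-like cells was 411 CPM (interval 396 to 426) at P1 maxillary, from 2916 UMIs in 350 barcodes, and 1067 CPM (1045 to 1090) at P1 mandibular, from 8641 UMIs in 469 barcodes. In papilla-like barcodes, the mesenchyme that odontoblasts arise from, the level was 1.82 CPM at P1 maxillary and 4.63 CPM at P1 mandibular. The ratio of odontoblast-like to papilla-like was 226-fold at P1 maxillary (log2 7.82, 7.51 to 8.15) and 231-fold at P1 mandibular (log2 7.85, 7.60 to 8.11). The maxillary log2 ratio was 5.70 with each barcode named by its own markers. Without shared barcodes it was 6.24 (3.59 to 11.62), from 19 odontoblast-like UMIs and 1 papilla-like UMI. In osteoblast-like barcodes 1 Dspp UMI was counted at P1 maxillary, 2 at P1 mandibular and 0 at E15.5 mandibular. The papilla-like value is close to that of cells that should lack the gene, since erythroid-like barcodes had 1.87 and 6.50 CPM at P1 maxillary and P1 mandibular.

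Within the odontoblast-like class Dspp followed the clusters. At P1 maxillary the cluster led by Tubb3, Notum and Wnt10a had 6.74 CPM of Dspp (139 barcodes), the cluster led by Gm32352, Mamdc2 and Tcim 123 CPM (127 barcodes), and the cluster led by Bglap 1337 CPM (84 barcodes). At P1 mandibular the cluster led by Anks1b, Aox3 and Dach2 had 6.69 CPM (132 barcodes), that led by Mgat4e 94.1 CPM (137 barcodes), that led by Fam155a 375 CPM (121 barcodes), and that led by Sh2d4a, with Bglap among its leading genes, 4818 CPM (79 barcodes). Col1a1, the main collagen of predentin, was at 4969, 11816 and 24296 CPM in the maxillary clusters in the same order. It was at 3762, 10431, 22406 and 45716 CPM in the mandibular ones. Few barcodes carried most of the class: at P1 maxillary 242 of 350 had no Dspp UMI, the highest had 401, and the top 35 held 90.9% of the UMIs. At P1 mandibular 283 of 469 had none and the top 47 held 78.0%. Without the Bglap-led cluster and the Gm32352-led one, which has Ifitm5 among its leading 10, 16 Dspp UMIs remained in the maxillary class and the log2 ratio to papilla-like fell from 7.82 to 1.89.

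The ameloblast-like class, the enamel-forming epithelium, held more Dspp than the odontoblast-like class. The level was 1117 CPM (1090 to 1143) at P1 maxillary, from 6899 UMIs in 506 barcodes, and 1366 CPM (1346 to 1387) at P1 mandibular, from 17248 UMIs in 989 barcodes. Without the Krt27-led and Gm49678-led clusters the mandibular level was 1765 CPM in 641 barcodes. All ameloblast-like barcodes accounted for 64.3% and 61.5% of all Dspp UMIs of their libraries, and the odontoblast-like ones for 27.2% and 30.8%. The other 3 epithelial classes together had 13.8 CPM at P1 maxillary and 14.6 CPM at P1 mandibular, 80.8-fold (log2 6.34, 6.14 to 6.54) and 93.5-fold (log2 6.55, 6.34 to 6.76) lower. The log2 ratio of odontoblast-like to ameloblast-like was -1.44 (-1.51 to -1.38) at P1 maxillary and -0.36 (-0.39 to -0.32) at P1 mandibular. In the Sh2d4a-led odontoblast-like cluster the level (4818 CPM) was above that of every ameloblast-like cluster.

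Dspp was spread over more barcodes in ameloblast-like than in odontoblast-like cells. At P1 maxillary 281 of 506 ameloblast-like barcodes (55.5%) had a Dspp UMI, with a median of 2 UMIs and a maximum of 161. At P1 mandibular 655 of 989 (66.2%) had one, with a median of 6 and a maximum of 141. After thinning to 2000 UMIs, which left out 27 and 56 shallower barcodes, the shares were 47.6% (43.0 to 52.2) and 56.3% (53.0 to 59.5). In odontoblast-like barcodes, thinned likewise, they were 15.6% (11.9 to 19.8) and 27.9% (23.8 to 32.2). In erythroid-like barcodes 2 of 572 and 4 of 500 had a Dspp UMI, with median depths of 1933 and 5418 UMIs before thinning, against 12460.5 and 12566 in ameloblast-like barcodes. Some other P1 classes held Dspp in few barcodes. In glia-like barcodes of P1 mandibular 171 UMIs lay in 5 of 99 barcodes, in endothelial-like ones 195 in 27 of 313, and in macrophage-like barcodes of P1 maxillary 106 in 4 of 311.

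The ameloblast-like clusters differed in Dspp and in Amelx. At P1 maxillary the cluster led by Agtr1b, Hs3st4 and Trpc5 had 11.6 CPM of Dspp and 187 CPM of Amelx (amelogenin, the main enamel protein). The cluster led by Gm40193, Gpha2 and Calb1 had 631 CPM of Dspp and 5453 of Amelx, that led by Gm13264 and Apba1 1348 and 3553, and that led by Amelx and Enam 2665 and 47674. At P1 mandibular the cluster led by the cell-cycle genes Nek2 and Hmmr had 168 CPM of Dspp and 1084 of Amelx, and that led by Gm49678 and Kcnq3 303 and 1766. The cluster led by Krt27 and Cyp26a1 had 996 CPM of Dspp and 9347 of Amelx, and that led by Ltf and Lcn2, both known from inflamed epithelium and neutrophils, 1971 and 24780. The remaining 3 mandibular clusters had 2077, 2790 and 2874 CPM of Dspp at 63975, 87216 and 51584 CPM of Amelx. The cluster with least Amelx thus had least Dspp in each P1 library, and clusters with 1348 CPM of Dspp or less had 9347 CPM of Amelx or less. The order of Dspp was that of Amelx over the 4 mandibular clusters lowest in Amelx, but not over the other 3 and not between the middle maxillary clusters. The labels give no ameloblast stage, so early and late ameloblasts are ordered here by Amelx alone.

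**Figure D2:**
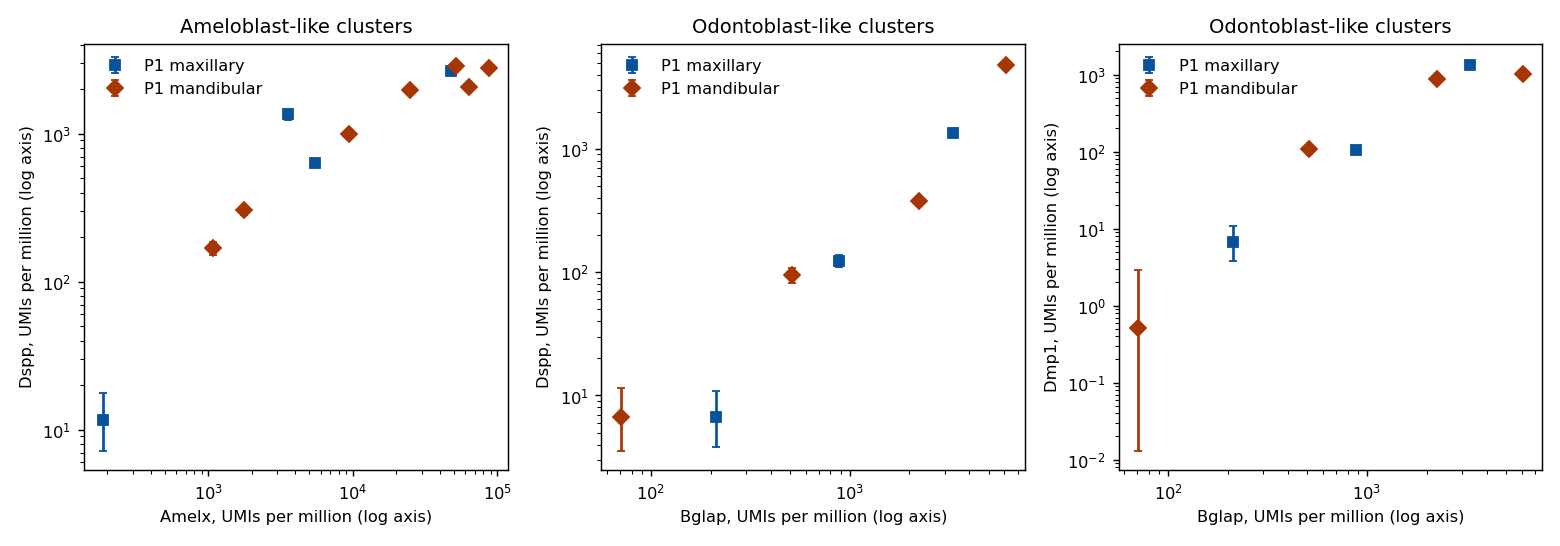
Dspp against Amelx in ameloblast-like clusters, and Dspp and Dmp1 against Bglap in odontoblast-like clusters, in CPM on log axes, 1 point per cluster with the 95% counting interval of the vertical value. Dspp runs from 11.6 to 2874 CPM over the ameloblast-like clusters and from 6.69 to 4818 CPM over the odontoblast-like ones. Among ameloblast-like clusters the one lowest in Amelx is lowest in Dspp in each P1 library.

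The ameloblast-like barcodes with 5 or more Dspp UMIs had little Col1a1 and much Amelx. They numbered 219 at P1 maxillary and 512 at P1 mandibular. Their Col1a1 was 72.0 and 168 CPM, against 12882 and 18860 CPM in odontoblast-like barcodes, and the 7 odontoblast markers summed to 286 and 289 CPM against 3663 and 3296. In ameloblast-like barcodes with no Dspp UMI the same markers summed to 134 and 133 CPM. Wnt10a, a Wnt ligand of the dental epithelium as well, went against the sum, at 303 CPM in the Amelx-led maxillary cluster and at 143 to 210 CPM in the maxillary odontoblast-like ones. The Amelx level of the barcodes with 5 or more Dspp UMIs was 32590 and 50102 CPM against 27.9 and 108 CPM in odontoblast-like barcodes. Their Dmp1 level was 2.27 CPM (7 UMIs) and 6.76 CPM (49 UMIs), against 407 and 462 CPM in odontoblast-like barcodes. Ameloblast-like barcodes with no Dspp UMI had 780 and 3826 CPM of Amelx, and those with 1 to 4 UMIs 1431 and 17502 CPM. These groups differ in depth as well. The median was 11392 and 11884 UMIs with no Dspp UMI, 6545 and 7026 with 1 to 4, and 14062 and 13848 with 5 or more. Leaving out the barcodes with the highest doublet scores changed the ameloblast-like Dspp level from 1117 to 1122 CPM at P1 maxillary and from 1366 to 1386 CPM at P1 mandibular. The odontoblast-like level went from 411 to 364 and from 1067 to 1003 CPM. The maxillary log2 ratio of ameloblast-like to other epithelial barcodes for Dspp went from 6.34 to 7.34. The other epithelial barcodes then held 97 Dspp UMIs in place of 214.

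At E15.5 Dspp was nearly absent. The maxillary library had 1 UMI, and the mandibular one 16 UMIs in 2 barcodes, 1 of which held 14. These 16 lay in a cluster of 14 barcodes led by Amelx, Calb1 and Apba1, with 95.1 CPM of Dspp (54.4 to 154) and 3619 CPM of Amelx, so that this level rests mainly on 1 barcode. The cluster was counted in the SR/SI-like class (stellate reticulum and stratum intermedium, the epithelial layers behind the ameloblasts), a name its leading gene goes against. Papilla-like barcodes of E15.5 had 0 Dspp UMIs in both jaws, which, taking 3 counts as the limit, allows up to 2.43 CPM in the maxillary and 0.711 CPM in the mandibular library.

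Dmp1 marked odontoblast-like cells more narrowly than Dspp. Its level was 407 CPM (392 to 422) at P1 maxillary, from 2888 UMIs, and 462 CPM (447 to 477) at P1 mandibular, from 3742 UMIs, and these barcodes held 95.8% and 90.5% of the Dmp1 UMIs of their libraries. Osteoblast-like barcodes had 18.4 CPM (11.4 to 28.1) at P1 maxillary, 31.0 CPM (24.5 to 38.8) at P1 mandibular and 55.7 CPM (43.6 to 70.2) at E15.5 mandibular. The odontoblast-like to osteoblast-like ratio was 22.1-fold at P1 maxillary (log2 4.47, 3.85 to 5.16) and 14.9-fold at P1 mandibular (log2 3.90, 3.57 to 4.24). In the order of levels over the named classes the 3 osteoblast-like values come next after the odontoblast-like ones, and the 2 of P1 have intervals that overlap. Pericyte-like barcodes of P1 maxillary were close to them, with 15 Dmp1 UMIs, at 15.6 CPM in shared and 8.73 CPM in unshared barcodes. Papilla-like barcodes had 0.961 CPM at P1 maxillary, 1.25 at P1 mandibular, 2.13 at E15.5 mandibular and 0 UMIs at E15.5 maxillary.

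Like Dspp, Dmp1 was low in the cluster led by Tubb3, Notum and Wnt10a (6.74 CPM) and high in the Bglap-led one (1347 CPM), with 106 CPM in the third maxillary cluster. At P1 mandibular it ran 0.515, 107, 869 and 1030 CPM over clusters in which Dspp ran 6.69, 94.1, 375 and 4818 CPM, so that the step from the Fam155a-led to the Sh2d4a-led cluster was larger for Dspp than for Dmp1. The osteoblast-like Dmp1 of P1 rested on 7 barcodes at P1 maxillary and on 10 at P1 mandibular, 1 of which held 40 of 77 UMIs. At E15.5 mandibular all 72 UMIs lay in the cluster led by Col22a1 and Ifitm5 (120 CPM). The direction of the class ratio hangs on the naming: without the same Bglap-led and Gm32352-led clusters, 16 Dmp1 UMIs remained in the maxillary odontoblast-like class and the log2 ratio was -1.45 (-2.48 to -0.44). With each barcode named by its own markers it was 1.89.

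Ibsp had its highest level in osteoblast-like cells but was spread over more classes than Dspp or Dmp1. Osteoblast-like barcodes held 22.7% of the Ibsp UMIs at P1 maxillary, where other mesenchyme-like barcodes held 34.2% and papilla-like ones 30.3%. They held 60.2% at P1 mandibular and 73.7% at E15.5 mandibular. At E15.5 maxillary, where no cluster was named osteoblast-like, other mesenchyme-like barcodes held 86.3%. That share was 4493 UMIs in 277 of 5636 barcodes, and the highest barcode had 940, so it does not show Ibsp throughout this class. Osteoblast-like barcodes had 2005 CPM (1924 to 2089) at P1 maxillary, 3201 CPM (3131 to 3272) at P1 mandibular and 10768 CPM (10590 to 10949) at E15.5 mandibular. Odontoblast-like barcodes had 19.3 and 26.1 CPM at P1 maxillary and P1 mandibular. The osteoblast-like to odontoblast-like ratio was 104-fold at P1 maxillary (log2 6.70, 6.45 to 6.96) and 123-fold at P1 mandibular (log2 6.94, 6.74 to 7.14). The maxillary log2 ratio was 1.59 with each barcode named by its own markers, and without the highest doublet scores the osteoblast-like level was 726 CPM and the log2 ratio 5.66. The class level came from a minority of barcodes at P1, since 22 of 139 maxillary and 69 of 224 mandibular osteoblast-like barcodes had an Ibsp UMI, with maxima of 488 and 2116. At E15.5 mandibular 64 of 78 had one, with a median of 13 UMIs. The UMIs were unevenly held there too, since the highest barcode had 3777 of 13915 and the top 8 held 77.4%. By cluster the level was 21655 CPM in the Col22a1-led and 1370 CPM in the Gm17359-led cluster of E15.5 mandibular, and 6946 CPM in the Mmp13-led and 713 CPM in the Ostn-led cluster of P1 mandibular.

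Chondrocyte-like barcodes of E15.5 had 713 CPM of Ibsp in the maxillary (20 barcodes) and 1059 CPM in the mandibular library (37 barcodes), where Runx2 was at 772 and 865 CPM. The 77 chondrocyte-like barcodes of P1 maxillary had 0 Ibsp UMIs, which allows up to 10.3 CPM by the same limit of 3 counts. Of the maxillary UMIs 263 of 366, and of the mandibular 635 of 1173, lay in 1 barcode. SR/SI-like barcodes had 143 CPM at P1 maxillary, with a UMI in 67 of 182 barcodes, and 83.6 CPM at P1 mandibular, in 82 of 330. This was 38.3-fold (25.1 to 61.4) and 8.31-fold (6.78 to 10.2) above the ameloblast-like levels of 3.72 and 10.1 CPM. Other epithelium-like barcodes had 34.9 CPM at P1 maxillary and 104 CPM at P1 mandibular, the latter above the SR/SI-like level of that library. Other mesenchyme clusters with Ibsp were led by Sfrp4 and Bmp3 at P1 maxillary (964 CPM), by Bmp3, Mdga2 and Moxd1 at P1 mandibular (1904 CPM) and by Ostn and Tnn at E15.5 maxillary (505 CPM). Spp1 was at 141, 19.4 and 5.90 CPM there. A cluster of 18 barcodes at E15.5 mandibular, led by 4930534H03Rik and Btla, had 1113 CPM of Ibsp and 1852 CPM of Spp1. Bmp3 is a bone morphogenetic protein made by bone-lineage cells. In papilla-like barcodes Ibsp was 63.8 CPM at P1 maxillary and 47.5 CPM at P1 mandibular (8.92 CPM, from 11 UMIs, at E15.5 maxillary and 97.9 CPM at E15.5 mandibular), highest at P1 in clusters with Pappa and Gabrg3 among the leading genes (267 and 165 CPM), with the erythroid-like level at 2.18 and 4.95 CPM.

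Among the named classes Spp1 was highest in the osteoblast-like one. The level was 4600 CPM (4477 to 4727) at P1 maxillary, 3407 CPM (3335 to 3481) at P1 mandibular and 1535 CPM (1469 to 1604) at E15.5 mandibular. Odontoblast-like barcodes had 34.2 CPM in both P1 libraries, from 243 and 277 UMIs. The ratio was 134-fold at P1 maxillary (log2 7.07, 6.88 to 7.26) and 99.6-fold at P1 mandibular (log2 6.64, 6.47 to 6.82). At P1 maxillary all 5252 osteoblast-like UMIs lay in 11 of 139 barcodes, the highest with 1725, and at P1 mandibular 8452 lay in 78 of 224. Without the highest barcode the maxillary log2 ratio was 6.52, without the highest doublet scores 6.17, and with each barcode named by its own markers 2.82. By cluster, all but 55 of the P1 mandibular osteoblast-like UMIs lay in the Mmp13-led cluster (8478 CPM), and the Ostn-led cluster had 36.9 CPM, within the range of odontoblast-like clusters. These had 8.42 CPM (Tubb3-led), 13.1 (Gm32352-led) and 97.4 (Bglap-led) at P1 maxillary. At P1 mandibular they had 6.69 (Anks1b-led), 10.6 (Mgat4e-led), 55.3 (Fam155a-led) and 76.1 CPM (Sh2d4a-led). Papilla-like barcodes had 20.4 and 16.6 CPM. Erythroid-like ones had 21.1 CPM, with 45 of 68 UMIs in 1 barcode, and 13.3 CPM. The odontoblast-like level was 1.68-fold (1.45 to 1.93) and 2.06-fold (1.77 to 2.40) above the papilla-like one. Of the 978 papilla-like UMIs of P1 maxillary 1 barcode held 595, and without it the ratio was 4.28-fold (3.63 to 5.04).

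Macrophage-like barcodes had 20.5 CPM of Spp1 at E15.5 maxillary, 40.1 at P1 maxillary, 132 at E15.5 mandibular and 163 at P1 mandibular. At P1 mandibular 1 barcode held 194 of the 473 UMIs. In the E15.5 mandibular library unnamed barcodes held 59.1% of the Spp1 UMIs and osteoblast-like ones 22.4%. The highest Spp1 level of any cluster there was 7681 CPM, in an unnamed cluster of 34 barcodes led by Nmur1, Fabp4 and Mmp9 (a gelatinase known from osteoclasts), which also had 2618 CPM of Ibsp. Osteoclasts were not kept as a class of their own, since clusters highest in their markers (Acp5, Ctsk, Ocstamp, Dcstamp and Atp6v0d2) were put with macrophage-like or leukocyte-like barcodes. The macrophage-like cluster of E15.5 mandibular, 226 barcodes, was one of these, with Acp5 and Atp6v0d2 beside C1qa among its leading 10.

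**Figure D3:**
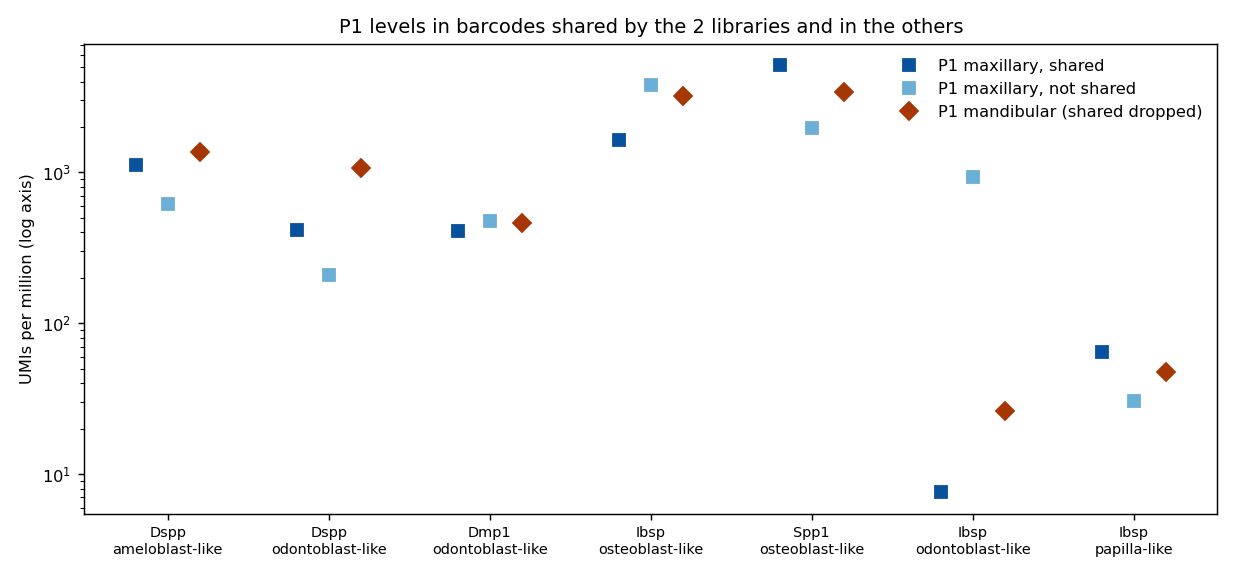
Level in CPM (log axis) of 7 gene and class pairs in P1 maxillary barcodes shared with the mandibular library, P1 maxillary barcodes not shared, and P1 mandibular barcodes after the shared ones were dropped. The unshared maxillary points rest on 31 ameloblast-like, 16 odontoblast-like, 71 osteoblast-like and 121 papilla-like barcodes; the largest gap is Ibsp in odontoblast-like barcodes, at 7.56 CPM in shared and 927 CPM in unshared ones.

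In both shared and unshared barcodes of P1 maxillary, Dspp was higher in ameloblast-like than in odontoblast-like ones. In shared ones Dspp was 1121 CPM in ameloblast-like and 413 CPM in odontoblast-like barcodes, and in unshared ones 613 CPM (34 UMIs) and 210 CPM (19 UMIs). Dmp1 in odontoblast-like barcodes was 406 CPM in shared and 475 CPM (43 UMIs) in unshared ones. Ibsp in osteoblast-like barcodes was 1645 and 3818 CPM, and Spp1 5122 and 1972 CPM. Of the 137 Ibsp UMIs in maxillary odontoblast-like barcodes, 84 lay in the 16 unshared ones, so that without shared barcodes the log2 ratio of osteoblast-like to odontoblast-like for Ibsp was 2.04 in place of 6.70.

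Mepe could hardly be measured, with 3 UMIs at E15.5 maxillary, 37 at P1 maxillary, 7 at E15.5 mandibular and 2 at P1 mandibular. At P1 maxillary 36 of the 37 UMIs lay in 15 papilla-like barcodes, all of them in shared ones, and 1 barcode held 15. Odontoblast-like barcodes had 0 UMIs at P1 maxillary and 1 at P1 mandibular, and osteoblast-like barcodes 1, 0 and, at E15.5 mandibular, 2. Counts this low give no ratio between these classes. Over whole libraries the log2 ratio of P1 over E15.5 for Mepe was 3.40 (1.74 to 5.74) in the maxillary libraries. It was -2.23 (-5.53 to 0.16) in the mandibular ones.

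Over whole libraries, Dspp and Dmp1 were higher at P1 in both the maxillary and the mandibular pair. With shared barcodes kept in the maxillary library, Ibsp and Spp1 were higher at P1 there and lower at P1 in the mandibular one. The Dspp level was 0.00916 CPM at E15.5 maxillary and 84.1 CPM at P1 maxillary, and 0.186 and 244 CPM in the mandibular libraries, a log2 ratio of 13.16 (10.69 to 18.47) and 10.35 (9.65 to 11.16). Dmp1 went from 0.449 to 23.6 CPM (log2 5.72, 5.31 to 6.16) and from 1.77 to 35.9 CPM (log2 4.34, 4.11 to 4.59). Ibsp went from 47.7 to 78.9 CPM in the maxillary libraries (log2 0.73, 0.68 to 0.77) and from 220 to 115 CPM in the mandibular ones (log2 -0.94, -0.97 to -0.91). Spp1 went from 17.9 to 56.8 CPM (log2 1.67, 1.60 to 1.74) and from 103 to 92.5 CPM (log2 -0.16, -0.20 to -0.12). Few barcodes weighed heavily in these levels. For Spp1, 1 barcode held 873 of 1949 UMIs at E15.5 maxillary and 1725 of 7253 at P1 maxillary. It was 1404 of 8859 at E15.5 mandibular and 2066 of 10649 at P1 mandibular. For Ibsp in the mandibular libraries, 1 barcode held 3777 of 18891 UMIs at E15.5 and 2116 of 13201 at P1. The counting intervals do not cover this. Without the highest doublet scores the maxillary log2 ratio was 0.32 for Ibsp and 0.62 for Spp1. As a mean over barcodes it was 3.65 for Dmp1, 0.54 for Ibsp and 0.20 for Spp1. Without shared barcodes, the maxillary log2 ratio was 8.48 for Dspp, 2.15 for Dmp1, -0.17 for Ibsp and 0.0086 (-0.13 to 0.14) for Spp1. Ibsp was then lower at P1 in both pairs of libraries, and the maxillary Spp1 ratio had no clear direction. The opposite directions thus rest on the shared barcodes, whose jaw is not known. The share of each cell type among the dissected cells differs between these libraries, so a level per cell and a number of cells cannot be told apart here. At E15.5 the mandibular library, which had 78 osteoblast-like barcodes, was above the maxillary one, which had none, in Ibsp (log2 of maxillary over mandibular -2.20) and Spp1 (-2.53).

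At the level of barcodes, Dmp1 was more frequent in odontoblast-like barcodes with Dspp than in those without, and it was rare in ameloblast-like ones. The odontoblast-like clusters differ in both genes (above), and co-detection within single clusters was not counted. Thinned to 2000 UMIs, 54 of 347 odontoblast-like barcodes of P1 maxillary had Dspp, 73 had Dmp1 and 41 had both. Of those with Dspp 75.9% had Dmp1, against 10.9% of those without. At P1 mandibular 128 of 459 had Dspp, 105 had Dmp1 and 71 had both. Dmp1 was in 55.5% of those with Dspp and in 10.3% of those without. In ameloblast-like barcodes 228 of 479 at P1 maxillary had Dspp and none of them had Dmp1. At P1 mandibular 525 of 933 had Dspp and 3 of these had Dmp1, of 4 with Dmp1 in all. Before thinning, all 7 Dmp1 UMIs of the maxillary ameloblast-like class lay in barcodes with Dspp, and 3 of the 55 mandibular ones lay in barcodes without it. Ibsp and Spp1 were found together in 7 of 117 osteoblast-like barcodes of P1 maxillary, where 15 had Ibsp and 10 had Spp1, and in 28 of 204 at P1 mandibular, where 39 and 48 had them. At E15.5 mandibular 53 of 75 had Ibsp, 15 had Spp1 and 10 had both, and Spp1 was about as frequent with Ibsp (18.9%) as without (22.7%).

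**Figure D4:**
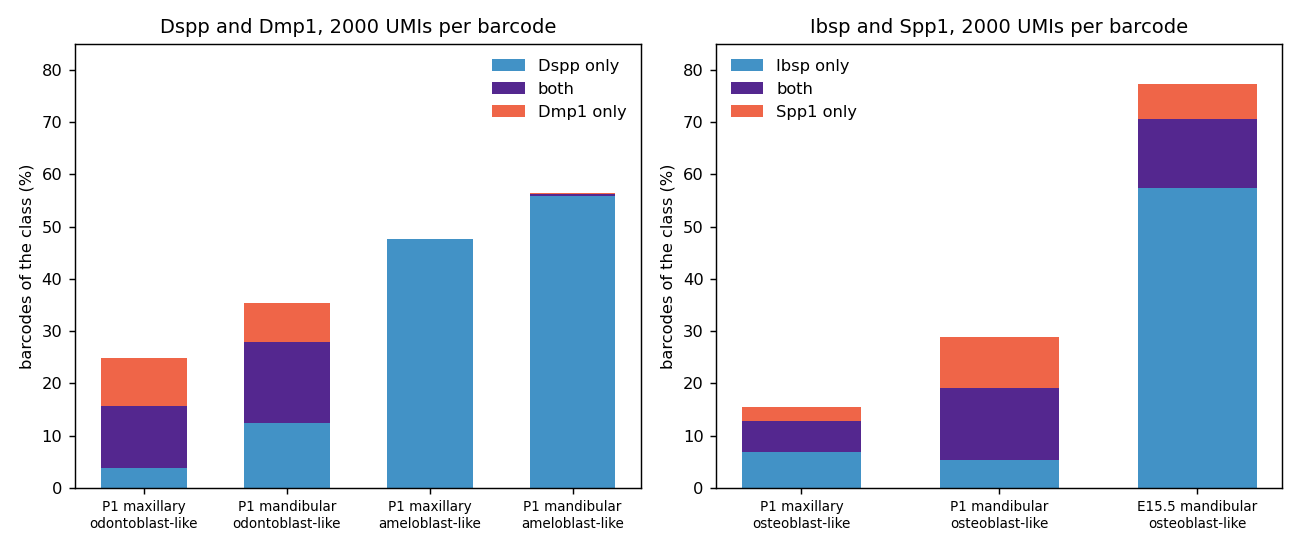
Percent of barcodes of a class, each thinned to 2000 UMIs, with only the first gene, both genes or only the second. Dspp and Dmp1 lie together in 41 of 347 and 71 of 459 odontoblast-like barcodes, and ameloblast-like barcodes hold Dspp almost without Dmp1.

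The partner genes of the family, which modify, cut or bind SIBLING proteins or act with them, were compared between the odontoblast-like and osteoblast-like classes of each P1 library. A gene was counted as different when it was past 2-fold, with at least 20 UMIs in both classes together. The P1 mandibular classes hold no shared barcodes. Of 38 partner genes, 35 could be measured at P1 maxillary, where 9 were higher in odontoblast-like and 8 higher in osteoblast-like barcodes. Of all 12054 genes measured there 12.1% were higher in odontoblast-like and 16.2% were lower. At P1 mandibular 11 of 37 were higher and 12 lower, against 10.0% and 19.8% of 12990 genes. The median log2 ratio of the partner genes was 0.003 at P1 maxillary and -0.02 at P1 mandibular, beside -0.06 and -0.19 over all genes. These classes include the clusters whose leading genes hold more markers of another class than of their own, namely the 4 odontoblast-like ones with Bglap or Ifitm5 and the Ostn-led osteoblast-like one, which is 125 of the 224 mandibular osteoblast-like barcodes. Without them, in a comparison added after the data were seen, 7 of 34 partner genes were higher and 14 lower at P1 maxillary, against 9.87% and 13.9% of 10441 genes, and 9 of 33 higher and 15 lower at P1 mandibular, against 11.0% and 17.3% of 11474 genes. The median log2 ratio of the partner genes was then -0.44 and -0.23. Of the genes counted as different with all clusters, 6 of the 9 higher and 8 of the 8 lower were so again at P1 maxillary, and 7 of 11 and 10 of 12 at P1 mandibular. The lower genes lost at P1 mandibular, Tll1 (1.14 against 8.08 CPM) and Itga8 (1.14 against 12.1 CPM), had fewer than 20 UMIs left. The same held for Mmp20 and Phospho1 among the higher ones.

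Of the kinases and proteases that process SIBLING proteins, 3 of 6 measured were higher in odontoblast-like and 2 lower at P1 maxillary, and 3 of 6 higher and 3 lower at P1 mandibular. Without the same clusters 1 of 5 was higher and 3 lower at P1 maxillary, and 2 of 4 higher and 2 lower at P1 mandibular. Fam20a, the partner of the Golgi kinase Fam20c, was at 226 CPM in odontoblast-like against 29.8 CPM in osteoblast-like barcodes of P1 maxillary, and at 248 against 38.3 CPM at P1 mandibular, and without the same clusters at 81.7 against 29.8 and at 95.3 against 40.4 CPM. Mmp2, a gelatinase, was at 119 against 217 CPM and at 116 against 298 CPM. Fam20c itself, which phosphorylates SIBLING proteins and is named here after its values were seen, was at 65.1 against 24.5 CPM and at 68.3 against 9.68 CPM, and without the same clusters at 23.6 against 24.5 and at 26.4 against 9.09 CPM. Of the genes of phosphate handling and mineralization, 2 of 6 were higher and none lower at P1 maxillary, and 3 of 7 higher and 1 lower at P1 mandibular. Without the same clusters the balance turned, with 1 of 6 higher and 2 lower at P1 maxillary and none of 6 higher and 3 lower at P1 mandibular. Phex, an endopeptidase lost in X-linked hypophosphatemia, was at 422 against 28.9 CPM and at 738 against 75.4 CPM. Without the same clusters its direction turned, at 9.68 against 28.9 CPM and at 83.7 against 185 CPM. Alpl, tissue-nonspecific alkaline phosphatase, was at 513 against 364 CPM and at 411 against 334 CPM, and without the same clusters at 438 against 364 and at 380.3 against 540.2 CPM.

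Of the receptors, integrin chains and Cd44, 1 of 8 was higher in odontoblast-like and 4 were lower at P1 maxillary, with a median log2 ratio of -1.40, and 1 of 9 was higher and 5 lower at P1 mandibular, with a median of -2.77. Without the same clusters 1 of 8 was higher and 4 lower in each library, with medians of -1.18 and -0.98. Itgb1, the common beta chain, was at 370 against 374 CPM and at 412 against 529 CPM. Itga4, the exception, was at 187 against 46.4 CPM and at 212 against 15.3 CPM, and without the same clusters at 322 against 46.4 and at 331 against 11.1 CPM. Of the matrix partners none was higher and 1 of 7 lower at P1 maxillary, and 1 higher and 2 lower at P1 mandibular. Without the same clusters 4 of 7 were lower at P1 maxillary (median log2 -1.35) and 5 of 7 at P1 mandibular (-1.72). Col1a1 was at 12882 against 8108 CPM and at 18860 against 10400 CPM, and Col1a2, the other chain of type I collagen, at 3562 against 5765 CPM and at 6630 against 8152 CPM. Without the same clusters Col1a1 was lower in odontoblast-like barcodes, at 4969 against 8108 CPM and at 7477 against 16677 CPM, and Col1a2 was at 560.3 against 5765 CPM and at 1130.1 against 12986 CPM. Of the transcription factors 3 of 8 were higher and 1 lower in each library, and without the same clusters 4 and 5 were higher and 1 lower. Msx1, a homeodomain factor of tooth mesenchyme, was at 200 against 255 CPM at P1 maxillary and at 142 against 86.7 CPM at P1 mandibular, with the direction differing between the libraries. Klf4, a zinc-finger factor, was at 399.6 against 241 CPM and at 315 against 98.4 CPM.

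**Figure D5:**
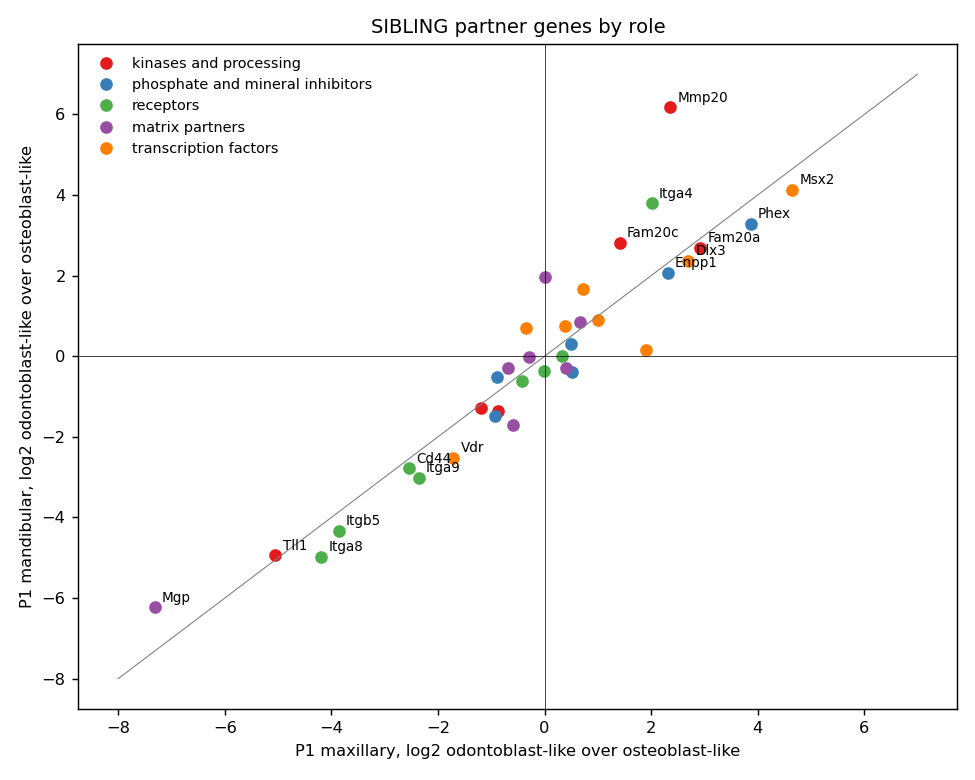
Log2 ratio of odontoblast-like over osteoblast-like barcodes for the partner genes with at least 20 UMIs in both P1 libraries, P1 maxillary on the horizontal and P1 mandibular on the vertical axis, coloured by role. Genes past 2 on either axis are named, chosen after their values were seen. Mgp, Tll1 and the receptors Itga8, Itgb5, Itga9 and Cd44 lie at the lower left. Msx2, Phex, Fam20a, Dlx3, Enpp1, Mmp20 and the receptor Itga4 lie at the upper right. Without clusters whose leading genes hold more markers of another class, Phex was at -1.58 and -1.14, and Mmp20 had too few UMIs for a ratio.

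The same list was compared between ameloblast-like and other epithelial barcodes. At P1 maxillary 8 of 36 measured partner genes were past 2-fold higher in ameloblast-like and 11 lower, against 8.08% and 21.8% of 14638 genes. At P1 mandibular 8 were higher and 8 lower of 36, against 7.82% and 20.9% of 15175 genes. The mandibular ameloblast-like class includes the Krt27-led and Gm49678-led clusters, which lead with a marker of another class. Counts without these clusters are not given. Fam20a was at 59.1 against 4.52 CPM at P1 maxillary and at 66.5 against 2.80 CPM at P1 mandibular. Itga4 was at 224 against 29.6 CPM and at 140 against 25.3 CPM, and Klf4 at 195 against 87.3 CPM and at 151 against 63.1 CPM. Col1a2 was also higher, at 426 against 121 CPM and at 339 against 145 CPM, whereas Col1a1 was at 96.3 against 145 CPM and at 166 against 190.1 CPM. Alpl was lower, at 5.99 against 230 CPM and at 37.9 against 322 CPM. Phex was at 2.75 against 3.62 CPM and at 5.15 against 4.39 CPM. Itgb1 was at 439.6 against 262 CPM and at 451 against 260.5 CPM, within 2-fold, as were Mmp2 (8.58 against 5.88 and 4.75 against 7.49 CPM) and Msx1 (3.72 against 4.26 and 4.67 against 5.83 CPM).

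The genes whose levels went most with each member were found over 57 combinations of class and library with at least 50 barcodes, by Pearson's r of log2(CPM + 1) among 8623 genes. These points share libraries, free RNA and depth, so r is a description. For Dspp they were Mmp20, the enamel protease that also cuts SIBLING proteins (r = 0.91), Gm40193 (0.89) and Ambn, ameloblastin (0.84), and all 3 had their highest level in ameloblast-like barcodes. For Dmp1 they were Chst13 (0.84), Bglap2 (0.84) and Ccdc194 (0.84), highest in odontoblast-like barcodes. For Ibsp they were Mmp13, a collagenase of bone and cartilage (0.76), Alpl (0.74) and the citrate transporter Slc13a5 (0.71), and for Spp1 Mmp13 (0.84), Ifitm5 (0.74) and Podnl1 (0.71). Among the members r was 0.67 between Ibsp and Spp1, 0.49 between Dspp and Dmp1, 0.44 between Dmp1 and Ibsp, and 0.02 between Dspp and Ibsp. Mepe was below 10 CPM at every point, and its likeness to other genes is not given. Dmp1 reached 10 CPM at 6 of the 57 points, Dspp at 13, and Ibsp and Spp1 at 26 each. The r values of Dmp1 in particular thus rest on few high points.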

How the data were processed

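The deposited tables are unnormalized UMI counts, which the authors made from droplet 3′ single-cell libraries of dissociated molars with Cell Ranger 7.0.1 (per the file headers), mm10 and the 10x mouse annotation, with no later filter. The files held 109723360 UMIs in 10885 barcodes at E15.5 maxillary, 128812956 in 18707 at P1 maxillary, 86659227 in 7947 at E15.5 mandibular and 139873101 in 19401 at P1 mandibular. Barcodes with fewer than 1000 UMIs were left out.

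Barcodes of each library were clustered with scanpy 1.11.5 and the Leiden method of igraph 0.11.9, without the 5 genes and the 38 partner genes. The settings were 2000 variable genes, 40 components, 15 neighbours, resolution 1 and, within lineages, 1.5. Clusters were named from marker lists by their position from 0 (lowest clusters) to 1 (highest), with thresholds of 0.8 for odontoblast, 0.6 for osteoblast and ameloblast and 0.4 for papilla markers. Further settings were 0.15 for a tie and 0.7 for the position of Runx2. All odontoblast-like clusters also lay above the osteoblast threshold, at positions of 0.69 to 0.90. The Sh2d4a-led one was at 0.861 for osteoblast and 0.858 for odontoblast markers. The members and lists were chosen with earlier results of these data known. The naming rule went through 6 versions whose listings also showed the levels of the 5 genes, its thresholds were set after the clusters were seen, and papilla-like clusters could also rest on markers of the odontoblast list. Unnamed barcodes numbered 211 at E15.5 maxillary, 685 at P1 maxillary, 387 at E15.5 mandibular and 902 at P1 mandibular. Doublets were kept, and leaving out the highest Scrublet scores was an alternative.

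A level is the summed UMIs of a gene per 1000000 UMIs of a class (CPM) with an exact Poisson 95% interval. Ratios carry exact binomial and shares Clopper-Pearson intervals, which cover counting error only. A class with 0 UMIs was set to 3 counts in a ratio. With 1 library per group no test was run. Of the partner genes the 2 of each role with the highest level in odontoblast-like or osteoblast-like barcodes of P1 were named, and for likeness the 3 genes with the highest r. The fold calls, the ratio interval and the likeness ranking were tested on simulated counts. Clustering, naming, thinning and doublet scores were not. Promoter windows came from RefSeq tables on GRCm38.p6, which held 4 of the 5 genes, and Python 3.11.15, scipy 1.17.1, pandas 2.3.3 and numpy 2.4.6 were used.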

Additional observations from a re-analysis of the deposited data

How the results depend on the processing

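All values here are log2 ratios for the maxillary libraries, and the osteoblast-like and odontoblast-like values of Ibsp and Spp1 are osteoblast-like over odontoblast-like. Under the alternative settings 58 values stayed within the counting interval, 4 of which the setting could not change because it touched no barcode of the comparison, 54 moved beyond it and 2 changed sign, and the cause was not tested. With shared barcodes left out of both P1 libraries, Dspp over papilla-like was 6.24, Dmp1 6.49, Ibsp 2.04, Spp1 5.48, ameloblast-like Dspp 6.81, and the P1 over E15.5 ratios were 8.48 for Dspp, 2.15 for Dmp1, -0.17 for Ibsp (a change of sign) and 0.0086 for Spp1. With each barcode named by its own markers, the class ratios were 5.70 for Dspp, 1.89 for Dmp1, 1.59 for Ibsp, 2.82 for Spp1 and 6.11 for ameloblast-like Dspp. With the highest Scrublet scores left out, Dmp1 was 5.38, Ibsp 5.66, Spp1 6.17, ameloblast-like Dspp 7.34, and the stage ratios were 0.32 for Ibsp and 0.62 for Spp1. Thinned to 2000 UMIs, Dspp over papilla-like was 7.33, Ibsp 5.43, ameloblast-like Dspp 7.23, and the stage ratios 9.83 for Dspp, 5.27 for Dmp1, 0.79 for Ibsp, 0.41 for Mepe and 1.90 for Spp1. As a mean over barcodes, Ibsp was 5.16, Spp1 6.51, ameloblast-like Dspp 6.61, and the stage ratios 3.65 for Dmp1, 0.54 for Ibsp, 1.65 for Mepe and 0.20 for Spp1. With a minimum of 500 UMIs Ibsp was 6.41 and Spp1 6.82, and with one of 2000 the Spp1 stage ratio was 1.91. Without barcodes of high mitochondrial percentage Spp1 was 6.85 and its stage ratio 1.55. At Leiden resolution 0.5 Dspp over papilla-like was 7.48 and Spp1 6.88.

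The remaining alternatives were chosen after seeing the data. With an osteoblast threshold of 0.5 Ibsp was 6.03 and Spp1 6.38. With an odontoblast threshold of 0.7 Dspp over papilla-like was 6.87, Dmp1 3.53, Ibsp 7.10 and Spp1 7.71. Without the odontoblast-like clusters that had more leading markers of another class, Dspp over papilla-like was 1.89, Dmp1 -1.45 (a change of sign), Ibsp 6.33 and Spp1 9.09. Without the barcode highest in the gene, Ibsp was 6.39, Spp1 6.52, and the stage ratios 0.65 for Ibsp and 1.28 for Spp1. The Mepe ratio of osteoblast-like to odontoblast-like, and its stage ratio without shared barcodes, gave no value. A fit of stage with jaw as a block was not run. Each stage and jaw had 1 library, and the P1 libraries share barcodes. Counting intervals say nothing of the spread between animals.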

Other observations

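Several clusters that no marker list named held Dspp together with Amelx. At P1 mandibular a cluster of 71 barcodes led by Sorcs3 and Kcnip4 had 356 CPM of Dspp and 7752 CPM of Amelx, and one of 78 barcodes led by Mfap5 and Clec3b 304 and 6746 CPM. Globin-led barcodes (140) there had 271 CPM of Dspp and 14561 CPM of Amelx. At P1 maxillary a cluster of 64 barcodes led by Mfap5 and Postn had 211 CPM of Dspp and 3809 CPM of Amelx, at 1515 CPM of Col1a1. Genes of more than one cell type were counted in these clusters, and the part of doublets or free RNA in them was not tested.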
